A study of Nothobranchius furzeri with 20 samples.

Results

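The effect of low-dose rotenone on the young brain was examined in the turquoise killifish, Nothobranchius furzeri, by comparing 5 RNA sequencing libraries of rotenone-treated fish with 5 of fish given the solvent DMSO, all 9 weeks old. These 10 libraries, of 20 in the series, were taken by their age and treatment labels. All fish were males of the strain MZM-04/10p, and the labelled tissue was brain. The treated groups had received rotenone at 1% of the LC50, the concentration that kills the median fish. The other 10 libraries came from fish of 27 weeks, 5 with DMSO and 5 with the same rotenone dose. They entered the same fit, where they shared in the estimate of the spread behind the young comparison. How long the fish were exposed, and by which route, is not given in the sources used here. In bulk brain RNA, a change in RNA per cell and a change in the number of cells of a type cannot be told apart.

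The killifish is a short-lived annual fish that is kept to study ageing within a vertebrate. Rotenone blocks complex I of the mitochondrial respiratory chain, the enzyme that passes electrons from NADH to ubiquinone. At high doses it is toxic to neurons, dopamine neurons among them, and it is used to model Parkinson's disease in other animals. The deposited genes carry identifiers without names, none of which could be matched to a symbol, so no gene below can be assigned to complex I, to stress responses or to a brain cell type, and the labelled tissue could not be checked by its markers.

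Library depth was even. Totals ran from 21155551 to 24045080 counts with DMSO and from 20611587 to 24159773 counts with rotenone, so that 1 count in the smallest library was worth 0.0485 CPM (CPM, counts scaled to a common library size by TMM normalization). Genes with at least 1 count numbered 21514 ± 91.0 with DMSO and 21581 ± 51.5 with rotenone (SD, n = 5 each), and the 100 genes with the most counts took 14.2% ± 0.905 and 14.2% ± 0.600 of each total. Libraries of a group differed by more than sampling noise in all 20 pairs, with a chi-square of 14.7 to 41.5 per degree of freedom. The labels do not say that each library came from a separate fish, so every p-value refers to variation among libraries, which may be technical.

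Young rotenone and DMSO brains were not separated on the first and second principal components. The first principal component of log2 CPM over the 10 libraries held 25.5% of the variance, the second 16.9% and the third 14.7%. On the first component DMSO libraries ran from -36.9 to 39.4 and rotenone libraries from -36.0 to 28.7, and each treatment had libraries on both sides of 0. The difference in means was within this spread (exact two-sided permutation test, p = 0.746). Nor did the groups part on the second component (exact permutation p = 0.571), and the third was not compared. Of the 6 measures of libraries compared in this way, the smallest exact p was 0.222, for the number of genes with a count, and all adjusted p-values were 1.0. The smallest p that 5 against 5 libraries allow is 0.0079.

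**Figure D1:**
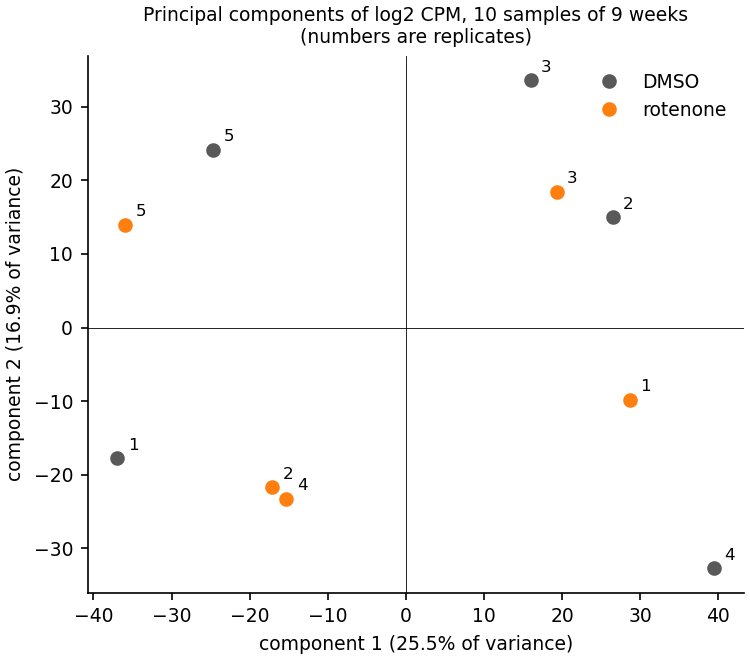
First and second principal components of log2 CPM in the 10 libraries of 9 weeks, 1 point per library, numbered by replicate. DMSO and rotenone libraries are mixed along both axes, which hold 25.5% and 16.9% of the variance.

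Variation among young libraries of a treatment was of similar size with rotenone and with DMSO. The median gene had an SD of 0.18 on the log2 scale in both groups, and 3.55% of genes with DMSO and 2.99% with rotenone had an SD above 1. The distance of a library from the mean of the other libraries of its group (root mean square over genes, log2 CPM) was 0.474 ± 0.0649 with DMSO and 0.449 ± 0.0197 with rotenone (SD, n = 5 each; exact two-sided permutation p = 0.413). Some genes varied far more than the median gene, and 1 of them is given here. Nfu_g_1_014206, an extreme singled out after its values were seen, reached 261 to 724 CPM in 6 of the 10 libraries, while the remaining 4 held 0.739 to 3.85 CPM. Among the high libraries were 3 of 5 with DMSO and 3 of 5 with rotenone, and its log2 difference was -0.12 ± 1.90 (SE; edgeR adjusted p = 0.999).

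Across 19452 genes with enough counts, 5 were called between rotenone and DMSO at 9 weeks (0.0257% of those tested), 4 higher (0.0206%) and 1 lower (0.00514%) with rotenone. A gene was called at an adjusted p below 0.05 in edgeR's quasi-likelihood test. Most differences were small, with exceptions among rare genes described below. From the 5th to the 95th percentile of genes, log2 changes ran from -0.29 to 0.40, with a median of -0.0018. An unadjusted p below 0.05 was reached by 1360 genes, 6.99% of those tested, 642 higher (3.3%) and 718 lower (3.69%). In 129 genes (0.663%) all rotenone libraries lay above all DMSO libraries and in 141 (0.725%) below, together 1.39% of genes.

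**Figure D2:**
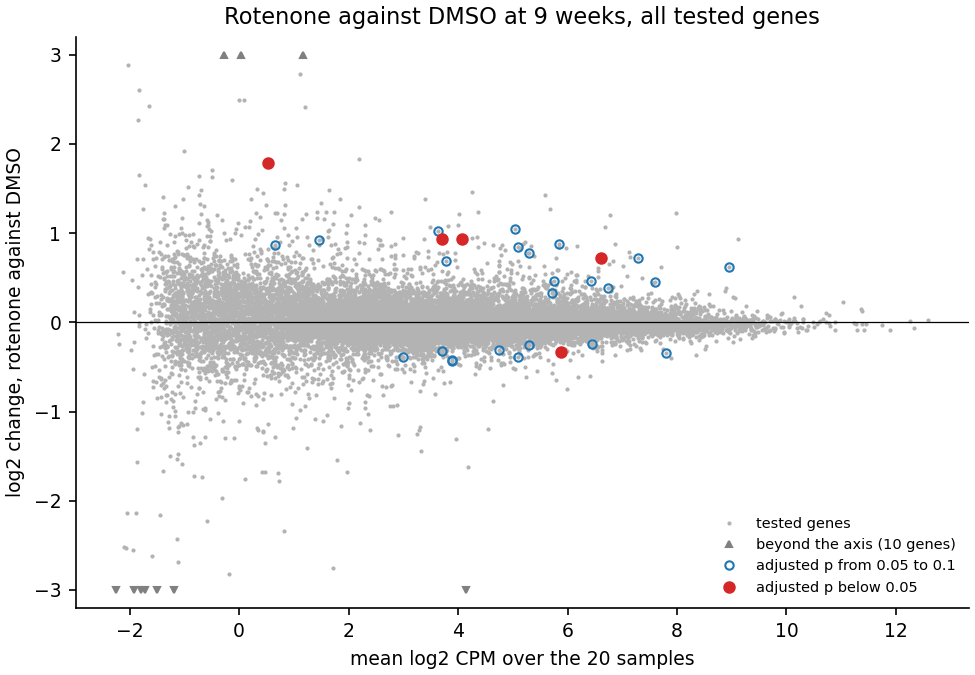
Log2 change of rotenone against DMSO at 9 weeks (vertical axis) by mean log2 CPM over the 20 libraries (horizontal axis), 1 point per tested gene. The 5 genes called at an adjusted p below 0.05 are filled red, those with an adjusted p from 0.05 to 0.1 are open blue, and triangles mark genes beyond the vertical axis. The called gene with the largest change lies at 1.78, and the widest scatter is among genes of low abundance.

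Nfu_g_1_001848 had the smallest p-value and the largest called change. It stood at 0.684, 0.665, 1.09, 0.407 and 0.670 CPM in the DMSO libraries, replicates 1 to 5, and at 2.51, 2.36, 2.47, 2.05 and 2.79 CPM in the rotenone libraries. Every rotenone library lay above every DMSO library. The gene was rare, with 9 to 25 counts per library with DMSO and 47 to 64 with rotenone, and its mean rose from 0.703 ± 0.244 to 2.43 ± 0.267 CPM (SD, n = 5 each), 3.46-fold. On the log2 scale this was a rise of 1.78 ± 0.25 (SE), with an edgeR adjusted p of 0.0198.

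Nfu_g_1_012912, a gene model of 300 bases, rose with overlap between the groups. DMSO libraries held 11.7, 12.9, 12.6, 12.6 and 18.0 CPM, and rotenone libraries 26.4, 29.8, 16.8, 27.8 and 28.4 CPM. The highest DMSO library, replicate 5, stood above the lowest rotenone library, replicate 3. Means were 13.6 ± 2.52 and 25.85 ± 5.20 CPM (SD, n = 5 each), a ratio of 1.91. The rise was 0.93 ± 0.14 on the log2 scale (SE), at an edgeR adjusted p of 0.0198.

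The gene in the next row of the deposited table was called as well and followed the same libraries. With DMSO it stood at 8.77, 9.45, 11.1, 10.5 and 12.3 CPM, and with rotenone at 20.0, 23.3, 12.6, 24.6 and 19.6 CPM. DMSO replicate 5 was again the highest of its group and rotenone replicate 3 the lowest, only just apart. Its log2 change was 0.94 ± 0.15 (SE; edgeR adjusted p = 0.0311). No strand setting of the counting is stated, so how reads of overlapping gene models were assigned is not known. Whether these models overlap was not tested.

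The fourth gene that rose was more abundant. It stood at 62.0, 66.6, 62.7, 65.7 and 88.2 CPM with DMSO and at 107.5, 120.0, 84.8, 134 and 123 CPM with rotenone. Here too DMSO replicate 5 was the highest and rotenone replicate 3 the lowest library of its group, and the groups overlapped. Means were 69.05 ± 10.9 and 114 ± 18.9 CPM (SD, n = 5 each), and the log2 rise was 0.72 ± 0.11 (SE), with an edgeR adjusted p of 0.0198.

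Nfu_g_1_001261 was the called gene that fell, by a small and even step. DMSO libraries held 63.6, 68.4, 73.8, 70.7 and 70.5 CPM, and rotenone libraries 54.1, 54.9, 55.3, 56.7 and 54.3 CPM. The groups did not overlap, and the rotenone libraries were closer together than the DMSO libraries. Its mean went from 69.4 ± 3.78 to 55.0 ± 1.04 CPM (SD, n = 5 each), 0.793 of the DMSO level. Its log2 value changed by -0.33 ± 0.05 (SE), with an edgeR adjusted p of 0.0198. Next among genes with a lower level came Nfu_g_1_015390, which did not pass. It stood at 16.8, 13.4, 13.6, 14.3 and 16.1 CPM with DMSO and at 11.1, 11.6, 11.5, 9.72 and 10.9 CPM with rotenone, without overlap, and its log2 difference was -0.44 ± 0.08 (SE; edgeR adjusted p = 0.0533).

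**Figure D3:**
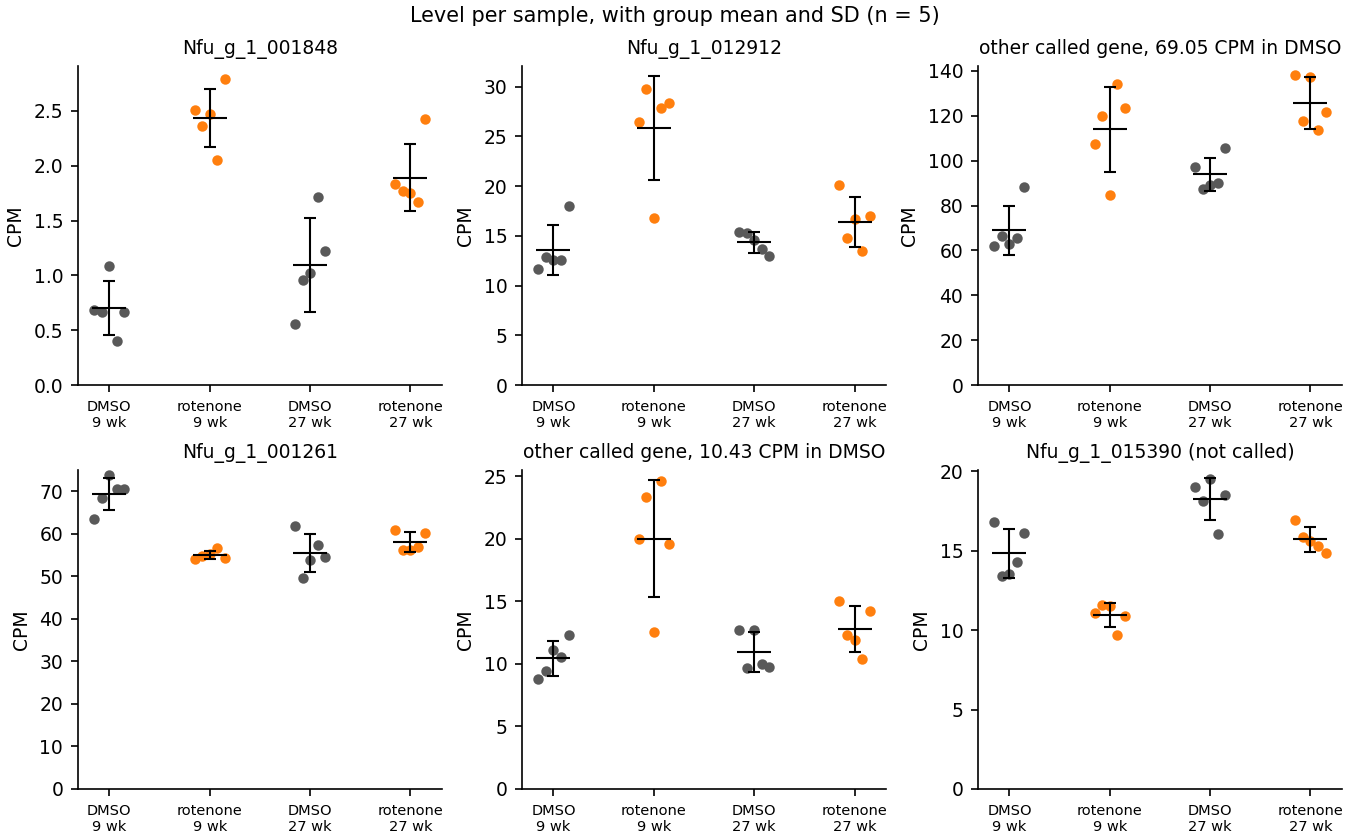
Level in CPM of the 5 called genes and of Nfu_g_1_015390 in every library (points) by age and treatment, with group mean and SD (n = 5, black). At 9 weeks 3 of the 4 genes that rose have their highest DMSO library close to their lowest rotenone library.

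In 3 of the 5 called genes, DMSO replicate 5 was the DMSO library nearest to the rotenone group and rotenone replicate 3 the rotenone library nearest to the DMSO group. The same pair was nearest in 7 of the 29 genes with an adjusted p below 0.1, and in 4.16% of all tested genes. Leaving out these libraries raised the number of calls. The pair was picked out from the called genes, so this is a description. Without DMSO replicate 5, 24 genes were called, 18 higher and 6 lower, and without rotenone replicate 3, 12 were called, 9 higher and 3 lower, the 5 genes among them both times. Without any other library, 0 to 3 genes were called, and 0 in 5 of the 10 cases, where edgeR gave 1135 to 1604 genes an unadjusted p below 0.05. The direction of each of the 5 genes was the same in all 10 of these fits. Each fit left fewer libraries, and the calls were often lost: Nfu_g_1_001848 was called in 5 of the 10, Nfu_g_1_001261 in 3, and the other 3 genes in 2 each.

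**Figure D4:**
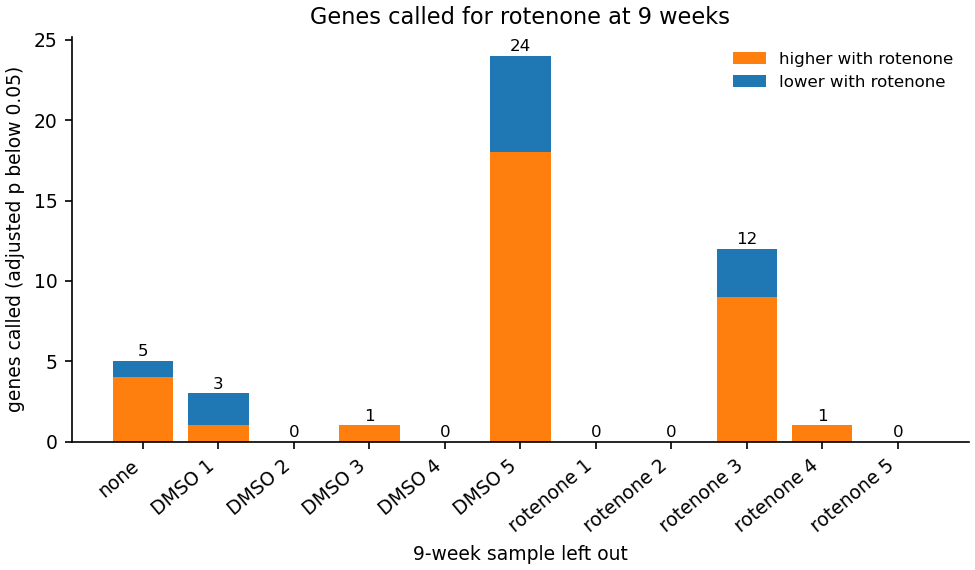
Number of genes called between rotenone and DMSO at 9 weeks (adjusted p below 0.05) with all libraries and without each 9-week library in turn, split by direction. The count is 24 without DMSO replicate 5, 12 without rotenone replicate 3 and 0 to 3 in the other fits.

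The 27-week libraries share in the fit's estimate of the spread, and the calls changed without them. When only the 10 young libraries were fitted, 1 gene was called and none of the 5 (edgeR, 1237 genes with an unadjusted p below 0.05). All 5 had the same direction there, which the same 10 libraries fix in both fits, and edgeR adjusted p-values of 0.0516 to 0.208. The gene called in that fit stood at 21.7 to 24.6 CPM with DMSO and at 33.0 to 36.7 CPM with rotenone. Its log2 change was 0.59 in both fits, with an edgeR adjusted p of 0.00615 among the young libraries alone and of 0.144 with all 20.

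DESeq2 called 91 genes, 0.459% of those it tested, 56 higher and 35 lower with rotenone. All 5 genes called by edgeR were among them, as were all 29 with an edgeR adjusted p below 0.1. Of the 91 genes, 55 differed by less than 1.5-fold and 14 by more than 2-fold. Among all 19452 genes in edgeR's fit, 18759 differed by less than 1.5-fold and 192 by more than 2-fold. In 60 of the 90 that edgeR also tested, the groups did not overlap, beside 1.39% of all genes edgeR tested, and in the other 30 they did. These genes were called on the same libraries, so the count is a description.

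The 29 genes with an edgeR adjusted p below 0.1, 0.149% of those tested, were 19 with a higher (0.0977%) and 10 with a lower level (0.0514%) in rotenone brains. The median log2 difference was 0.77 among the higher and -0.34 among the lower, beside 0.10 and -0.08 over all tested genes of either sign. In this list 3 of 29 changes were above 2-fold, beside 192 of all 19452 tested genes, and 15 stayed under 1.5-fold, beside 18759. The list was picked by a p that tests the change. Its genes were somewhat more abundant and longer than all tested genes, with a median log2 CPM of 5.09 against 4.08 and a median length of 3336 against 2670 bases.

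Large fold differences at 9 weeks were mostly found in rare genes with large errors. Of 192 genes that differed by more than 2-fold, 106 were higher and 86 lower with rotenone, 1 was called, beside 0.0257% of all tested genes, and in 11 the groups did not overlap, beside 1.39% of all tested genes. Their median log2 CPM was 0.06, against 4.08 over all genes, and the median standard error of their log2 change was 0.75, against 0.12. At an unadjusted p below 0.05 in edgeR stood 80 of them, beside 6.99% of all tested genes. They were picked by the size of the change that this p tests.

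How precisely a change could be measured depended on abundance. For 70.8% of tested genes the 95% interval of the log2 change, taken gene by gene, lay within 1.5-fold in either direction, and for 87.2% within 2-fold. In the most abundant tertile of genes these shares were 94.5% and 98.6%, and in the least abundant 33.05% and 67.75%. Unadjusted p-values below 0.05 were split by direction as 229 higher and 257 lower in the most abundant tertile, 201 and 334 in the middle, and 212 and 127 in the least abundant. By gene length, 277 were higher and 233 lower in the longest tertile, and 138 and 228 in the shortest. Whether abundance or length has a part in this split was not tested.

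None of the 5 genes was called in old brains, and for none was the effect called as different between the ages. The same dose at 27 weeks called 76 genes (0.391% of those tested). The 5 genes had edgeR adjusted p-values of 0.0986 to 0.562 there. Of them, 2 had an unadjusted p below 0.05, beside 14.4% of all tested genes. In 4 of the 5 the direction was the same, beside 51.7% of all tested genes. Nfu_g_1_001848 stood at 1.10 ± 0.424 CPM with DMSO and 1.89 ± 0.305 CPM with rotenone at 27 weeks (SD, n = 5 each), a log2 difference of 0.78 ± 0.25 (SE; edgeR adjusted p = 0.158). The most abundant gene of those that rose at 9 weeks stood at 93.9 ± 7.44 and 126 ± 11.4 CPM at 27 weeks, with all rotenone libraries above all DMSO libraries (edgeR adjusted p = 0.0986). Nfu_g_1_012912 differed little, at 14.4 ± 1.04 and 16.4 ± 2.50 CPM, a log2 difference of 0.19 ± 0.14 (SE).

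Nfu_g_1_001261, which fell at 9 weeks, was not called at 27 weeks. Old DMSO libraries ran from 49.7 to 61.8 CPM and old rotenone libraries from 56.2 to 60.95 CPM, a log2 difference of 0.07 ± 0.05 (SE; edgeR adjusted p = 0.562). The effects at both ages differed by 0.40 ± 0.07 on the log2 scale, short of the threshold with an edgeR adjusted p of 0.0557. For the other 4 genes the adjusted p of this difference was 0.211 to 0.543. Unadjusted, 4 of the 5 had an edgeR p below 0.05 for it. The 5 genes were picked by their 9-week change, which is part of this difference, so the count is a description.

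Among the 29 genes, 17 had the same direction at 27 weeks, 58.6%, against 51.7% of all tested genes and 57.4% of the 1360 with an unadjusted p below 0.05. At 27 weeks 12 of the 29 had an unadjusted p below 0.05 in edgeR, beside 2810 of the 19452 tested genes. In 10 of these 12 the direction was also the same as at 9 weeks, beside 1469 of those 2810 genes. The comparisons at both ages share no library, but they share the fit's estimate of the spread. The median log2 difference at 27 weeks was 0.21 for the 19 genes higher at 9 weeks and 0.02 for the 10 lower, beside -0.0038 and -0.02 over all genes of either sign.

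Of the 29 genes, 2 were called at 27 weeks, beside 0.391% of all tested genes, both higher with rotenone at both ages. Nfu_g_1_001278 stood at 20.7 to 32.9 CPM with DMSO and at 41.7 to 53.01 CPM with rotenone at 9 weeks, and at 26.0 to 43.75 and 46.85 to 66.45 CPM at 27 weeks. The groups did not overlap at either age. Its log2 changes were 0.77 ± 0.14 at 9 weeks (SE; edgeR adjusted p = 0.0538) and 0.72 ± 0.14 at 27 weeks (edgeR adjusted p = 0.0231). Nfu_g_1_008034 stood at 73.6 to 98.1 and 105 to 117 CPM at 9 weeks and at 90.6 to 121 and 133 to 140 CPM at 27 weeks, again without overlap. Its log2 changes were 0.39 ± 0.08 (SE; edgeR adjusted p = 0.0878) and 0.44 ± 0.08 (edgeR adjusted p = 0.0146). The 27-week call was kept without each of the 20 libraries for Nfu_g_1_008034 and in 16 of 20 fits for Nfu_g_1_001278. The 4 fits that lost it for Nfu_g_1_001278 all left out a 27-week library. Fits without a 9-week library hardly change the 27-week difference, so they are a weak check of this call. From the deposited RPKM, with either pseudocount, the 27-week call was lost for both genes. Limma adjusted p-values there ran up to 0.0662 for Nfu_g_1_008034 and 0.190 for Nfu_g_1_001278. Those RPKM were mostly divided by another library's total. With RPKM recomputed from each library's own total, both calls were kept. The limma adjusted p-values were then 0.00859 for Nfu_g_1_008034 and 0.0294 for Nfu_g_1_001278. Both genes were picked out after their values were seen.

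One of the 29 genes was called for a difference of its rotenone effect between the ages, and was singled out for that. Nfu_g_1_005740 stood at 55.2, 46.8, 50.6, 50.2 and 49.0 CPM in young DMSO brains and at 67.2, 63.6, 65.2, 62.5 and 57.9 CPM in young rotenone brains, without overlap. Old DMSO brains held 47.5 to 56.1 CPM and old rotenone brains 41.4 to 49.9 CPM, with overlap. The log2 difference was 0.33 ± 0.06 at 9 weeks (SE; edgeR adjusted p = 0.0710) and -0.22 ± 0.06 at 27 weeks (edgeR adjusted p = 0.114), neither past the threshold. The difference between them, -0.55 ± 0.09, was 1 of the 4 called across all genes, 0.0206% of those tested (edgeR adjusted p = 0.0315). It was called in 8 of the 20 fits without 1 library.

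**Figure D5:**
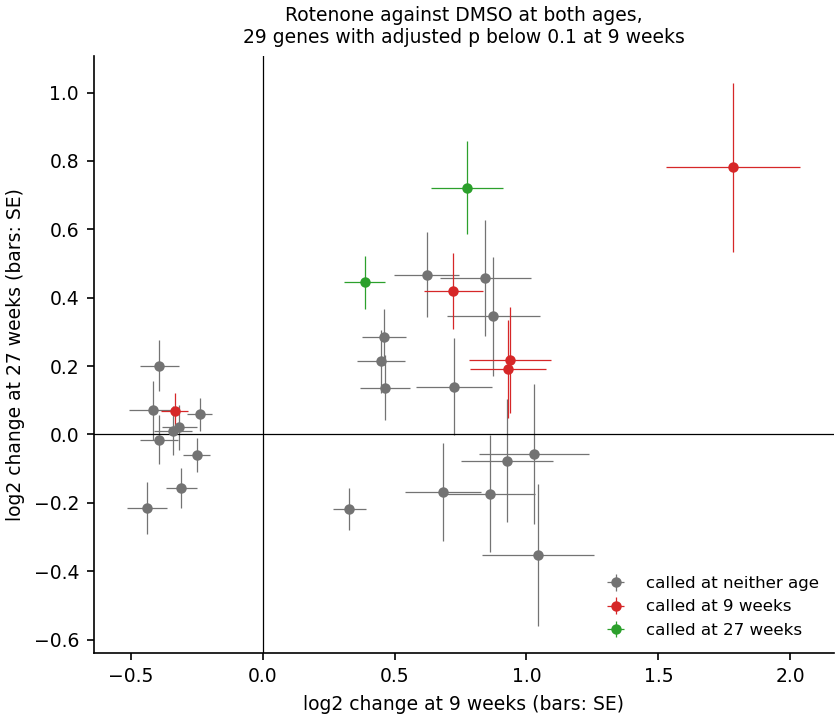
Log2 change of rotenone against DMSO at 9 weeks (horizontal axis) and at 27 weeks (vertical axis) for the 29 genes with an adjusted p below 0.1 at 9 weeks, with standard errors. Genes called at 9 weeks are red and those called at 27 weeks green, and 17 of the 29 have the same sign at both ages.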

How the data were processed

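Brain total RNA was sequenced after TruSeq RNA v2 preparation, per the labels' protocols. The tools named in the submitters' processing notes are STAR 2.4.1d, featureCounts 1.4.6-p4 and bcl2fastq 1.8.4. No genome build, annotation or strand setting is given in the sources used here. The deposited counts are whole numbers per gene, not normalized, for 26739 genes. The deposited RPKM were scaled by the authors with the 20 library totals recycled along the table, so that a value was mostly divided by another library's total (99.98% of values above 0 recovered within 0.0011 RPKM), so they served only for gene lengths and as alternatives.

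From the counts, edgeR 4.0.16 (R 4.3.3) computed all main tests: genes kept by filterByExpr (19452), TMM scaling, a robust quasi-likelihood fit of 1 mean per group to all 20 libraries, and Benjamini-Hochberg adjustment over all genes. Levels are CPM, with a prior count of 2 added for log2 CPM. The code was tested on simulated data. Alternatives used other scaling, filters, DESeq2 1.42.0, limma 3.58.1, sva 3.50.0, and each 9-week library left out. Replicates were numbered in accession order. Identifiers were printed for the 2 called genes of smallest p in each direction, filled up with the next gene where fewer were called. Others are named as singled out, or described without identifier. The members, lists and rules were chosen with earlier results of these data known.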

Additional observations from a re-analysis of the deposited data

Results flagged for a closer look

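In 52 groups of 5 libraries, over 10 genes and 6 library measures, the gap between the farthest library and its neighbour was set against the group's range, and in 5 it exceeded 0.71 of the range. For independent groups of normally distributed values, chance alone would give about 1 in 20. These groups share libraries, and the genes were picked by p-values from the same libraries, so that rate cannot be applied to them. For Nfu_g_1_012912 at 9 weeks, DMSO replicate 5 stood at 18.0 CPM, far above the next at 12.9, and rotenone replicate 3 at 16.8 CPM, far below the next at 26.4. For the most abundant of the called genes that rose, DMSO replicate 5 stood at 88.2 CPM and the next at 66.6. Nfu_g_1_001848 reached 2.43 CPM in rotenone replicate 5 of 27 weeks, with the next library at 1.83. The gene called among the young libraries alone stood at 23.2 CPM in rotenone replicate 1 of 27 weeks, with the next at 34.1.

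The effect of rotenone was called as different between the ages for Nfu_g_1_005740. The log2 difference was -0.55 ± 0.09 (SE), with an edgeR adjusted p of 0.0315. For this gene the call was lost in 12 of the 20 fits without 1 library. Neither its higher level at 9 weeks nor its lower level at 27 weeks was called on its own.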

How the results depend on the processing

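The number of genes called at 9 weeks, 5, became 1 with the 9-week libraries alone, 91 with DESeq2, 8 with 1 surrogate variable from sva, and 3 from the deposited RPKM with a pseudocount of 0.1 or of 1. It ran from 0 to 24 when each 9-week library was left out. With library totals it was 6, with limma-voom 4, and with median-ratio size factors, other filters, no robust estimation or recomputed RPKM it was 5. No direction of the 6 genes described first changed in 23 alternatives. These reused the same 9-week libraries, or all but 1 of them, so a change of direction was hardly possible. The call of Nfu_g_1_001848 was made in 12 of 13 other settings and in 5 of 10 fits without 1 library, that of Nfu_g_1_001261 in 10 and 3, and that of Nfu_g_1_012912 in 12 and 2. For Nfu_g_1_005740 the difference between ages, a comparison added after seeing the data, was called in 10 of 12 settings. It was called in 8 of 20 fits without 1 library. The log2 change of Nfu_g_1_001848, 1.78, was 0.44 from the deposited RPKM with a pseudocount of 1, which exceeds the gene's level. The other causes were not tested. No paired analysis was possible because the running numbers in the sample titles differ between the groups, and nothing in the labels ties them to a shared batch or litter.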

Other observations

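The surrogate variable that sva found in the 20 libraries parted them like the gene with 2 levels, Nfu_g_1_014206. It lay between 0.141 and 0.341 in the 11 libraries where that gene was high and between -0.256 and -0.213 in the other 9. With it as a term, 8 genes were called at 9 weeks, 7 higher and 1 lower, with all 5 genes among them.

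Tested genes next to each other in the order of the deposited table had related log2 changes at 9 weeks. Rows of untested genes were left out before distances were counted. Pearson's r was 0.141 between consecutive tested genes (19451 pairs), 0.0624 at 2 tested genes apart and -0.0033 at 10 apart. At 27 weeks it was 0.101, 0.0137 and 0.0157. Rows share libraries, genes are not independent, and the row order is not stated to follow the genome, so these are descriptions of the table. Of the called genes, 2 lay in adjacent rows. The nearest tested genes, 2 rows before the pair and 1 row after it, had log2 differences of -0.53 ± 0.44 and -0.05 ± 0.08 (SE), with edgeR adjusted p-values of 0.918 and 0.987. The gene in the row before Nfu_g_1_001848 stood at 9.43 CPM with DMSO and 16.1 CPM with rotenone, a log2 difference of 0.77 ± 0.24 (SE; edgeR adjusted p = 0.395).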
